A study of Mus musculus with 6 samples.

Results

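The 10 genes described here, *Ltf*, *Camp*, *Lcn2*, *Ngp*, *S100a8*, *S100a9*, *Mmp8*, *Mmp9*, *Retnlg* and *Chil3*, encode proteins that neutrophils make late in their development. They were taken by name from a table of 54532 genes, and all 10 were found, each in 1 row. The RNA came from LSK cells (Lin-Sca1+c-Kit+), the bone marrow fraction that holds hematopoietic stem and multipotent progenitor cells, of C57BL/6 mice. There were 3 libraries of the genotype Myh9fl/fl;Mx1-cre (cKO) and 3 of littermates of the genotype Myh9fl/fl;no cre (CTRL), each from 100000 sorted cells. Both groups carry the floxed *Myh9* allele, and by the sample descriptions both received poly I:C at 5 mg/kg, with LSKs sorted 4 days after the first injection. The number of doses is 2 in the sample descriptions and 3 in the study's methods, which give an age of 5 to 6 weeks at injection. *Mx1-cre* is switched on by interferon in many cell types and not in blood cells alone, and since controls lack Cre, an effect of Cre itself and an effect of the deletion cannot be told apart. How many mice each library came from is not stated, so the p-values below measure the spread between these libraries.

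Neutrophils fill their granules in waves that follow their maturation. Primary (azurophil) granules, with myeloperoxidase and serine proteases, are made first, at the promyelocyte stage, and specific and gelatinase granules follow in myelocytes and metamyelocytes under the control of C/EBP transcription factors, C/EBP-epsilon above all. Late granule genes are therefore known as marks of maturing neutrophils, cells that the LSK gate is meant to exclude through the lineage antibodies against Gr-1 and CD11b.

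The genes split by direction. In the libraries labelled cKO, *Retnlg*, *Chil3*, *Lcn2* and *Mmp9* rose, while *Ltf*, *Camp*, *Ngp* and *S100a9* fell, and *S100a8* and *Mmp8* did not pass the test. A gene is said to have risen or fallen at a Benjamini-Hochberg adjusted p under 0.05 in limma's moderated test on log2(FPKM + 1), where FPKM is fragments scaled to gene length and library size. All fold changes are cKO over CTRL on this scale unless a ratio of mean FPKM is named. All 10 passed the filter on low values, a mean across both groups of 1 FPKM or more (*Mmp9* through the cKO group alone), so 8 of 10 changed, 4 upward and 4 downward, against 40.5%, 19.9% and 20.6% of the 11552 genes tested. The median log2 fold change of the 10 was 0.059, and that of all genes tested was -0.0096. The share of members called is thus above that of all genes, without a common direction.

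The 9 members with an entry in the RefSeq promoter table (build GRCm38.p6, 250 bases before to 50 after the start) were searched on both strands for TTNNGCAA, a form of the C/EBP element, for its palindrome TTGCGCAA, which is a special case of it, and for GAGGAA, a PU.1 core. TTNNGCAA was found in 6 of 9, those of *Ltf*, *Ngp* and *S100a9*, which fell, of *Lcn2* and *Retnlg*, which rose, and of *Mmp8*. It occurs in 10.8% of all 32851 promoters of this length. The deposited table starts some genes further upstream than RefSeq does, by 513 bases for *Lcn2* and 61 bases for *Ngp*, so that the match of *Lcn2* and the nearer match of *Ngp* lie inside the gene as drawn there. Of the 9 members, 5 hold the letters outside the deposited gene. *Ngp* held it 2 times, at -138 and at -11 from the start, and *Ltf* once, at -75. TTGCGCAA was in 0 of 9, with 0.183% among all promoters, and GAGGAA in 4 of 9 (*Ltf*, *Lcn2*, *S100a8* and *Mmp8*), with 28.3% among all, in 3 of them outside the deposited gene. *Camp* and *Chil3* held none of these letters in this window, and *Mmp9* is named only. The 250 bases before the RefSeq start are shown for a pair that fell, *Ltf* (chr9:111019042-111019270, plus strand) and *S100a9* (chr3:90695722-90695971, minus strand), and a pair that rose, *Retnlg* (chr16:48872358-48872607, plus strand) and *Chil3* (chr3:106167565-106167814, minus strand), because they let the same element be seen before genes of opposite direction and be missed before another. They are written 5′ to 3′ on the strand of the gene, with TTNNGCAA or GAGGAA, on either strand, in capitals. For *Ltf*, the last 21 bases lie inside the gene as the deposited table draws it and are left out.
Ltf: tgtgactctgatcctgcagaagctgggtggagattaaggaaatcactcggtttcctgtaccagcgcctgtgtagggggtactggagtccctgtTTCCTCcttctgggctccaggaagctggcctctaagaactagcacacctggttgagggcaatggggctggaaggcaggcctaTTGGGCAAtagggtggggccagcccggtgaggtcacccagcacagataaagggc
S100a9: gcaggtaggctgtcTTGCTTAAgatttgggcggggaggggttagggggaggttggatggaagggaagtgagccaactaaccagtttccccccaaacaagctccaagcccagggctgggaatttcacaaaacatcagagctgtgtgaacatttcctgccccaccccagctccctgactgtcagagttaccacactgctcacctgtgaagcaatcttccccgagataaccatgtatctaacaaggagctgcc
Retnlg: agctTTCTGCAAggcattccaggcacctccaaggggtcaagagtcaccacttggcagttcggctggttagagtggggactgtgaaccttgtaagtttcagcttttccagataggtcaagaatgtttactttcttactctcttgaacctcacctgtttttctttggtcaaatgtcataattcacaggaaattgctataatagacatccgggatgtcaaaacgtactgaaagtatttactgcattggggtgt
Chil3: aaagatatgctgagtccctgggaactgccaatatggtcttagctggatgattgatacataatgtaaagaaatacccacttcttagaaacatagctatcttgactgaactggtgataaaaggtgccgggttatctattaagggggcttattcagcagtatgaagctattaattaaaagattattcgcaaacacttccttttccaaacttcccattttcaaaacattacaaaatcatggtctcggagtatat

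Facts of the whole series bear on these values as follows. The libraries held 17571544 to 19894562 reads on genes, and the 10 genes had 52 to 1222 reads in a library. *Myh9*, the targeted gene, was at 23.0, 22.6 and 22.0 FPKM in CTRL and at 18.4, 19.96 and 17.7 FPKM in cKO libraries. The mean differed by -17.1% (log2 fold change -0.26, limma adjusted p = 0.00642), so the ratio of cKO to CTRL was 0.829. This value covers the whole gene and not the floxed exon alone, and the deletion itself was not measured here, so cKO below is the label of the libraries. *Kit*, which the sort selects for, was at 23.4 to 24.3 FPKM in CTRL and 21.2 to 21.8 FPKM in cKO, and *Ly6a*, the gene of Sca1, at 93.2 to 96.7 and 85.4 to 92.3 FPKM. Of 7 surface genes of LSKs tested, 2 rose (*Flt3* and *Procr*), 1 fell (*Kit*) and 4 did not pass the test. Of all genes tested, 19.9% rose and 20.6% fell. Of the genes behind the lineage antibodies, *Itgam* (CD11b) was at 0.819 to 1.39 FPKM in CTRL and 0.610 to 0.830 FPKM in cKO, and *Ly6g* (Gr-1) at 0.214 to 1.22 and 0.699 to 1.25 FPKM. These surface marks of mature neutrophils were thus low in both groups, each with a mean under the filter of 1 FPKM. Of the T cell genes of the sort, *Cd4* was at 0.274 to 0.349 FPKM in CTRL and 0.706 to 0.911 FPKM in cKO. *Cd3e* was at 0 in CTRL and 0.183 to 0.282 FPKM in cKO, and *Cd8a* at 0 to 0.0277 FPKM and 0. In such bulk RNA, fewer cells of a type and less RNA per cell cannot be told apart.

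**Figure D1:**
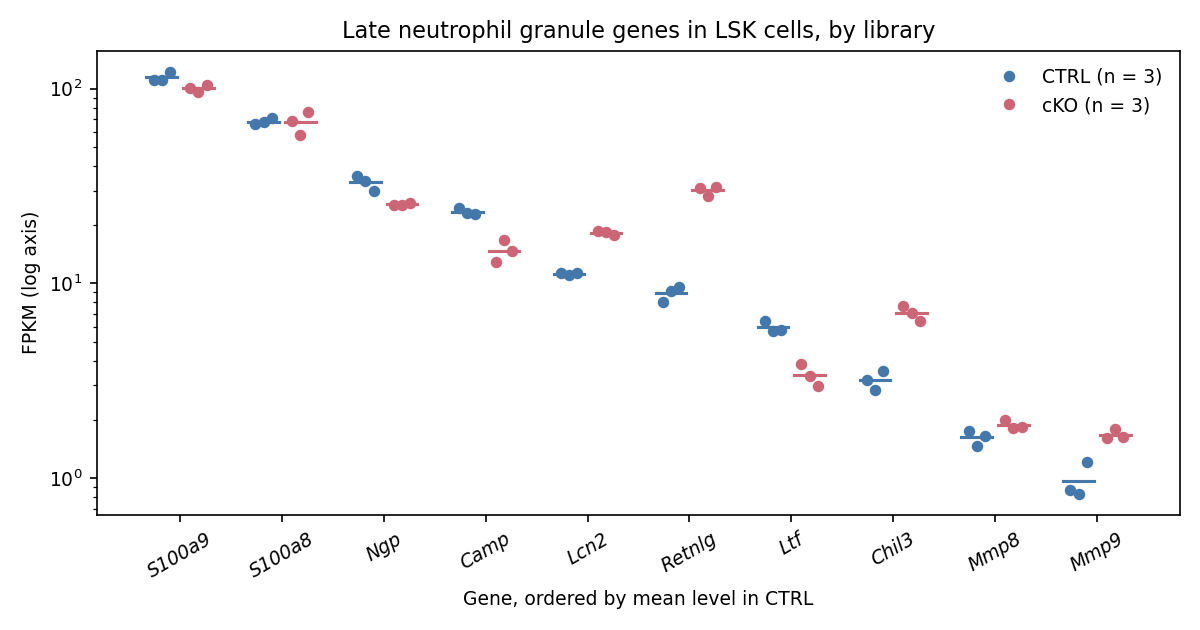
Level of each late granule gene in each library, in FPKM on a log axis, with genes ordered by their mean in CTRL. Points are libraries (3 CTRL, 3 cKO) and short lines are group means. The cKO points of Retnlg (28.2 to 31.3 FPKM) stand far above its CTRL points (8.06 to 9.58 FPKM), those of Ltf and Camp stand below, and those of S100a8 overlap.

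The largest rises among the 10 were those of *Retnlg* and *Chil3*. *Retnlg* (ENSMUSG00000022651, chromosome 16 from 48872621 to 48874496, plus strand, 4 exons) encodes resistin-like gamma, a small cysteine-rich secreted protein abundant in mouse neutrophils. It measured 8.06, 9.19 and 9.58 FPKM in CTRL and 30.9, 28.2 and 31.3 FPKM in cKO libraries. Every cKO library was far above every CTRL library, by 3.37-fold in mean FPKM (log2 fold change 1.65, standard error 0.069, limma adjusted p = 1.4e-05). This is rank 55 among the rises of all 11552 genes. The study names cutoffs of more than 2-fold and p under 0.05, without stating a scale. On the log2(FPKM + 1) scale, with an unadjusted p, these were passed by 1.43% of genes upward and 0.701% downward. *Retnlg* alone of the members passed them. Its paralogs *Retn*, *Retnla* and *Retnlb* are listed at 0 in every library.

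*Chil3* (ENSMUSG00000040809, chromosome 3 from 106147554 to 106167564, minus strand, 11 exons) encodes Ym1, a chitinase-like lectin without enzyme activity made by neutrophil precursors and by some macrophages. Its levels were 3.20, 2.85 and 3.54 FPKM in CTRL and 7.62, 7.09 and 6.45 FPKM in cKO libraries. The groups did not overlap, and the mean was 2.21-fold higher in cKO (log2 fold change 0.94, standard error 0.082, limma adjusted p = 2.8e-04). Of its stretches of 50 bases, 26.9% also stand in transcripts of *Chil4* or *Gm6522*, so reads could be shared, and *Chil4* is listed at 0 in every library. No stretch of 50 bases of the other 9 members was found in a transcript of another gene.

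*Lcn2* (ENSMUSG00000026822, chromosome 2 from 32384633 to 32388252, minus strand) encodes lipocalin 2, a specific granule protein that binds bacterial siderophores and so withholds iron. It was at 11.4, 11.1 and 11.3 FPKM in CTRL and at 18.6, 18.4 and 17.6 FPKM in cKO libraries. The groups lay far apart, and its standard error was the smallest of the 10 (log2 fold change 0.65, standard error 0.035, limma adjusted p = 4.1e-05).

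*Ltf*, *Camp* and *Ngp* went the other way. *Ltf* (ENSMUSG00000032496, chromosome 9 from 111019271 to 111042767, plus strand, 17 exons) encodes lactoferrin, the iron-binding protein that defines specific granules. It fell from 6.43, 5.67 and 5.77 FPKM in CTRL to 3.85, 3.34 and 2.97 FPKM in cKO libraries. All 3 cKO values were below all CTRL values, with means differing by -43.1% (log2 fold change -0.67, standard error 0.085, limma adjusted p = 0.00137). *Camp* (ENSMUSG00000038357, chromosome 9 from 109847379 to 109849617, minus strand), the gene of the antimicrobial peptide cathelicidin, fell from 24.3, 22.9 and 22.8 FPKM to 12.9, 16.7 and 14.7 FPKM. Its cKO libraries were spread more widely than its CTRL libraries but remained below them (mean change -36.8%, log2 fold change -0.63, standard error 0.086, limma adjusted p = 0.00173). *Ngp* (ENSMUSG00000032484, chromosome 9 from 110419747 to 110423012, plus strand), neutrophilic granule protein, a relative of the cathelicidins, fell from 35.6, 33.5 and 29.9 FPKM to 25.3, 25.2 and 26.0 FPKM. Here the CTRL libraries were the more widely spread, and all 3 lay above the cKO libraries (mean change -22.6%, log2 fold change -0.35, standard error 0.062, limma adjusted p = 0.00479).

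*Camp*, *Ngp* and *Ltf* lie within 1.195 Mb of chromosome 9. Of the 16 genes tested in this stretch, which was chosen after the values were seen, 5 fell and 0 rose. Of all genes tested, 20.6% fell and 19.9% rose. The median log2 fold change in the stretch was -0.040. The 3 granule genes, which define the stretch, are among the 5. The rise of *Lcn2* beside the falls of *Ltf* and *Camp* shows in ratios within a library, which do not depend on how libraries are scaled to each other. *Lcn2* over *Ltf* was 1.77 to 1.96 in CTRL and 4.82 to 5.93 in cKO libraries. *Lcn2* over *Camp* was 0.468 to 0.496 in CTRL and 1.10 to 1.44 in cKO, so that *Lcn2* passed *Camp* in level in every cKO library. *Retnlg* over *Ltf* was 1.25 to 1.66 and 8.01 to 10.5. In each of these 3 ratios the groups did not overlap (exact permutation p = 0.1, two-sided, the smallest that 3 libraries against 3 allow).

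**Figure D2:**
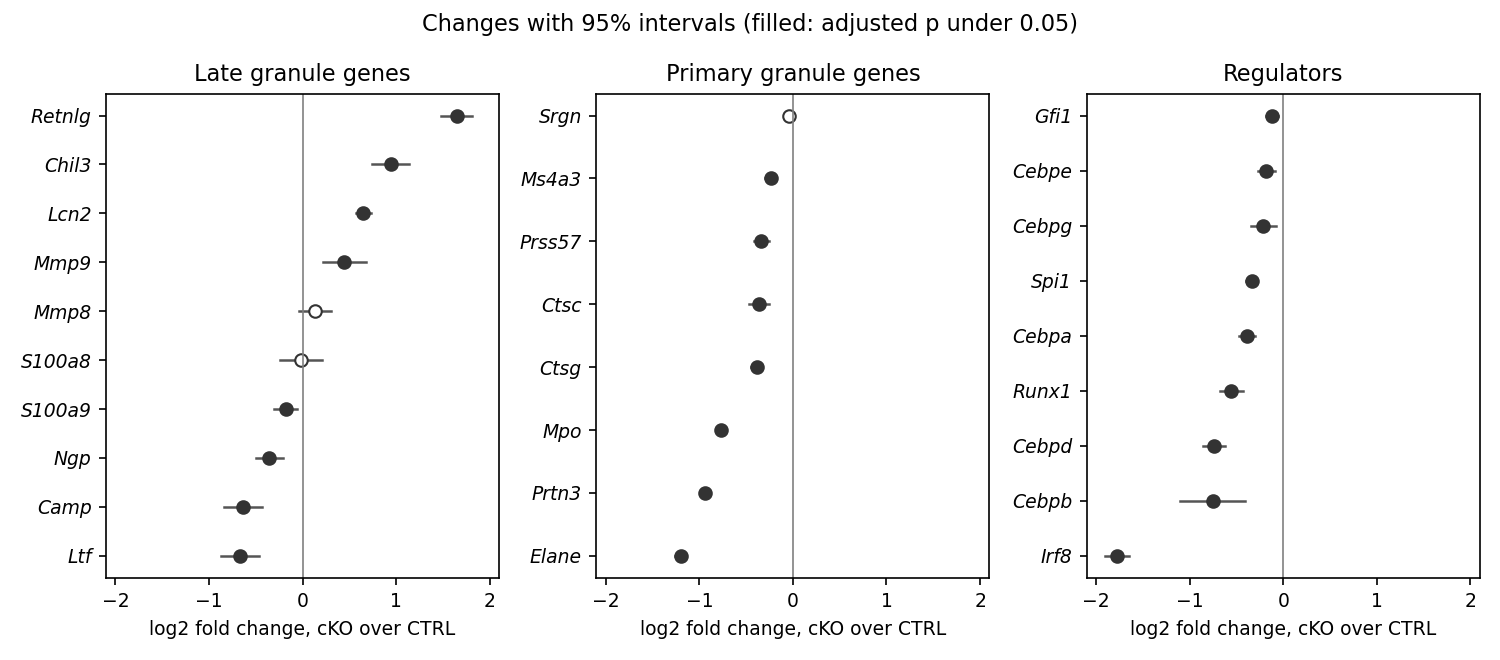
log2 fold change (cKO over CTRL) of each late granule gene, primary granule gene and regulator tested, with 95% intervals from limma, n = 3 libraries a group. Filled points have an adjusted p under 0.05. The late granule genes lie on both sides of 0, from -0.67 (Ltf) to 1.65 (Retnlg), and the points of the other panels lie below 0.

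*S100a8* and *S100a9*, whose products pair as calprotectin, the most abundant protein of the neutrophil cytosol, were the most abundant of the 10 in every library. *S100a9* (ENSMUSG00000056071, chromosome 3 from 90692632 to 90695721, minus strand) measured 110, 110 and 122 FPKM in CTRL and 101, 96.0 and 105 FPKM in cKO libraries. The groups did not overlap, but the change was small (mean change -11.9%, log2 fold change -0.18, standard error 0.051, limma adjusted p = 0.0296). Its limma adjusted p was 0.0616 when CTRL replicate 3 was left out, 0.0724 when cKO replicate 1 was, and 0.0769 when cKO replicate 2 was. *S100a8* (ENSMUSG00000056054, chromosome 3 from 90668978 to 90670035, plus strand), which lies 22.6 kb from it, measured 65.9, 67.1 and 70.3 FPKM in CTRL and 68.3, 57.6 and 75.9 FPKM in cKO. The cKO values lay on both sides of the CTRL values (log2 fold change -0.020, 95% interval -0.24 to 0.20, limma adjusted p = 0.885). The ratio of *S100a9* to *S100a8* was 1.65 to 1.73 in CTRL and 1.38 to 1.67 in cKO, and the groups overlapped (exact permutation p = 0.2).

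The metalloproteases were the least abundant. *Mmp9* (ENSMUSG00000017737, chromosome 2 from 164940780 to 164955850, plus strand, 13 exons) encodes gelatinase B, which names the gelatinase granules. It measured 0.867, 0.834 and 1.21 FPKM in CTRL and 1.61, 1.78 and 1.62 FPKM in cKO libraries, from 52 to 115 reads. The cKO libraries were all higher, by 1.73-fold in mean FPKM (log2 fold change 0.45, standard error 0.096, limma adjusted p = 0.0109). Its CTRL mean of 0.969 FPKM is under the filter, which it passed through the cKO libraries. Leaving it out of the count, 3 members rose. *Mmp8* (ENSMUSG00000005800, chromosome 9 from 7558456 to 7568485, plus strand, 10 exons), neutrophil collagenase of the specific granules, had 63 to 91 reads, with 1.74, 1.47 and 1.65 FPKM in CTRL and 2.004, 1.81 and 1.84 FPKM in cKO. Its groups did not overlap, yet the difference did not pass the test (log2 fold change 0.14, 95% interval -0.034 to 0.31, limma adjusted p = 0.173). In 9 of the 10 genes every cKO library was on the same side of every CTRL library, as in 54.0% of all genes tested.

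The rises and falls left the summed level in place. The 10 genes added up to 265 to 278 FPKM in CTRL and 256 to 283 FPKM in cKO libraries. *S100a8* and *S100a9* made up most of this sum, and the other 8 added up to 85.8 to 91.5 FPKM in CTRL and 103 FPKM in each cKO library. Within the sum, *Retnlg* took 3.31% ± 0.258 (SD, n = 3) in CTRL and 11.1% ± 0.193 in cKO, and *Ltf* 2.21% ± 0.172 and 1.26% ± 0.188. *Ngp* took 12.2% ± 1.32 and 9.44% ± 0.351. In CTRL the order of levels was *S100a9*, *S100a8*, *Ngp*, *Camp*, *Lcn2*, *Retnlg*, *Ltf*, *Chil3*, *Mmp8* and *Mmp9*. In cKO, *Retnlg* came after *S100a8*, above *Ngp*, while *Camp* came after *Lcn2* and *Ltf* after *Chil3*. Neighbours in either order did not overlap between libraries of the group (0 of 18 pairs), the closest being *Mmp8* and *Mmp9* in cKO, 1.13-fold apart.

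**Figure D3:**
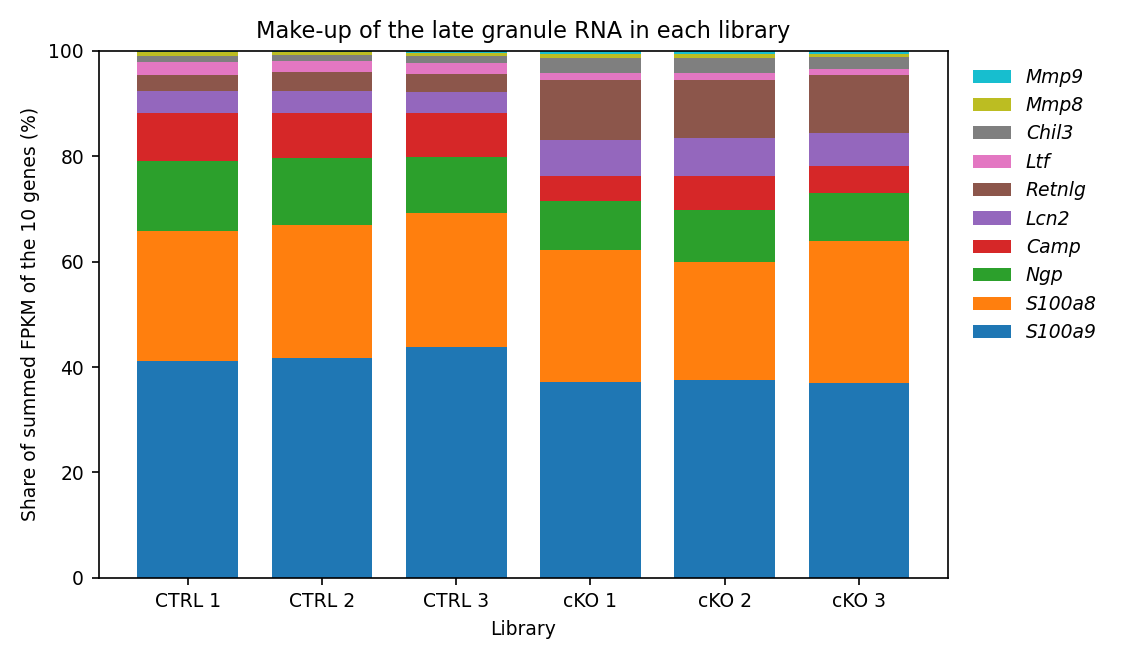
Share of each late granule gene in the summed FPKM of the 10, in percent, for the 3 CTRL and 3 cKO libraries, stacked from 0 to 100. The band of Retnlg widens from 3.31% on average in CTRL to 11.1% in cKO, and those of Camp, Ngp and Ltf narrow.

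The primary granule genes, made earlier in the lineage, did not show this split. Of 8 measured, 7 fell and 0 rose, against 20.6% and 19.9% of all genes tested. *Srgn* (serglycin, the proteoglycan that packs granule contents) did not pass (limma adjusted p = 0.119). The median log2 fold change of the 8 was -0.37. They were far more abundant in LSKs, with a summed level of 10955 to 11022 FPKM in CTRL and 6380 to 6476 FPKM in cKO libraries. *Elane* (neutrophil elastase) measured 3096 ± 37.6 FPKM in CTRL and 1346 ± 28.5 FPKM in cKO (SD, n = 3, log2 fold change -1.20, limma adjusted p = 2.2e-06). *Mpo* (myeloperoxidase) fell from 3331 to 1953 FPKM and *Prtn3* (proteinase 3) from 2008 to 1046 FPKM in the mean. The summed primary granule level was 39.5 to 41.3 times that of the 10 late genes in CTRL and 22.6 to 24.9 times in cKO.

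Another list holds 40 granule, secreted and surface genes known from late neutrophils. Of these, 23 passed the filter. Of the 23, 12 fell and 2 rose, against 20.6% and 19.9% of all genes tested, and 9 did not pass the test. Of the 17 that were not tested, 7 were higher and 1 was lower in cKO without overlap of the libraries, at low levels. The share without overlap was 54.0% among all genes tested and was not counted for genes under the filter. Among granule and secreted genes, *Cybb*, the catalytic subunit of the phagocyte oxidase, had a log2 fold change of -1.06, *Fcnb* (ficolin B) one of -0.79 and *Lyz2* (lysozyme) one of -0.79. *Pglyrp1*, which binds bacterial peptidoglycan and is stored in specific granules, rose as *Lcn2* did, from 23.0, 20.7 and 23.1 FPKM to 38.7, 39.2 and 37.6 FPKM (log2 fold change 0.76, limma adjusted p = 7.2e-05). Among surface genes, *Clec5a* (-0.998), *Ltb4r1*, the leukotriene B4 receptor (-0.58), and *Cxcr2*, a chemokine receptor (-0.52), fell on the log2 scale, and the lectin *Clec4d* rose (0.35). Without the filter on low values, 6 of the 40 rose and 12 fell. *Fcnb* passed the filter through the CTRL libraries alone. *Olfm4*, *Mmp25*, *Itgb2l* and *Fpr1*, all known from mature neutrophils, were below 1 FPKM in every library.

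Of 10 regulators of granulopoiesis, 9 passed the filter and all 9 of these fell, against 20.6% of all genes tested. *Lef1* was below 1 FPKM in every library. *Cebpe*, the factor most closely tied to late granule genes, fell least but for *Gfi1*, from 33.8, 33.0 and 35.0 FPKM in CTRL to 29.0, 29.9 and 30.8 FPKM in cKO libraries (log2 fold change -0.18, limma adjusted p = 0.00872). *Cebpb*, used in emergency granulopoiesis, had a log2 fold change of -0.76, *Cebpd* of -0.74, *Cebpa* of -0.39 and *Spi1* (PU.1) of -0.34. *Irf8*, which favours monocytes over neutrophils, had the largest fall (log2 fold change -1.78), from 52.1 to 14.5 FPKM in the mean. *Cebpg* had an adjusted p above 0.05 under 7 of 17 alternative settings (at most 0.0711) and *Gfi1* in the fit without CTRL replicate 2 (0.0523).

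**Figure D4:**
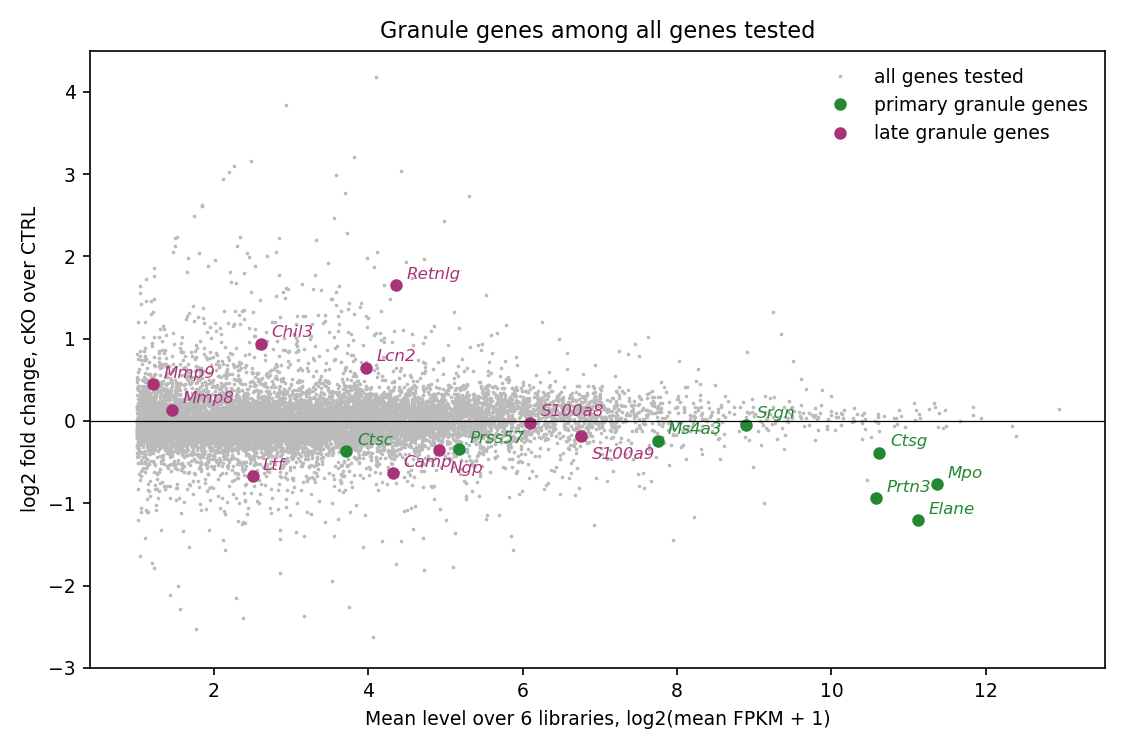
log2 fold change (cKO over CTRL) against mean level, log2(mean FPKM + 1), for the 11552 genes tested (grey), the late granule genes (purple) and the primary granule genes (green). The late genes scatter on both sides of 0 over a wide range of levels, and the most abundant primary granule genes lie below 0.

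Markers of other cells moved between the groups as well. For comparison with the counts below, 19.9% of all genes tested rose and 20.6% fell. Of 12 monocyte genes, 8 passed the filter and all 8 fell, and their summed level was 506 to 545 FPKM in CTRL and 193 to 212 FPKM in cKO libraries. Of 11 macrophage genes, 6 were tested, 3 rose (*C1qa*, *C1qb* and *C1qc*) and 2 fell, with a summed level of 29.1 to 31.5 and 33.0 to 35.2 FPKM, while *Mrc1*, *Siglec1* and *Vcam1* were below 1 FPKM in every library. Of 8 mast cell and basophil genes, 6 were tested and 5 rose (90.3 to 102 and 149 to 159 FPKM in sum), with *Tpsab1* listed at 0 in every library. Of 9 eosinophil genes, 4 were tested, 2 rose and 1 fell (27.6 to 29.0 and 34.9 to 38.1 FPKM in sum). Of the 2, *Epx* lost its call with the replicate block and without CTRL replicate 1, cKO replicate 1 or cKO replicate 3 (limma adjusted p at most 0.064). Of 8 erythroid genes, 5 were tested and 5 rose (51.1 to 54.9 and 105 to 115 FPKM in sum). Of the B and plasma cell genes, 5 were tested, 3 rose and 0 fell, with *Jchain* at 30.1 to 30.8 FPKM in CTRL and 60.1 to 67.3 FPKM in cKO libraries. Of 8 T and NK cell genes, 3 were tested, *Ccl5* (log2 fold change 1.73) and *Klrd1* (0.94) rose and *Nkg7* fell (-0.34), and *Cd3d* was at 0.0554 to 0.281 FPKM in CTRL and 1.29 to 1.63 FPKM in cKO libraries. Of 6 dendritic cell genes, 1 was tested, *Bst2*, which fell (log2 fold change -0.15). The 5 not tested were all under 1 FPKM, and of these 1 was higher and 2 were lower in cKO libraries without overlap. Some of these counts are partly set by the filter: 2 erythroid genes (*Hbb-bs* and *Hba-a1*), 2 mast cell genes (*Cma1* and *Fcer1a*), and 1 each of the macrophage (*C1qc*), eosinophil (*Epx*), B cell (*Cd79a*) and T and NK cell (*Klrd1*) genes passed it through the cKO libraries alone. *Adgre1*, a macrophage gene, passed it through the CTRL libraries alone, and *Hba-a2*, which was not tested, was lower in cKO libraries (0 to 0.0822 against 0.151 to 0.255 FPKM). The part of these cells in the changes of the late granule genes was not tested.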

How the data were processed

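RNA-seq of LSK cells was used from 3 CTRL and 3 cKO libraries. The authors deposited FPKM values with gene lengths. Per the labels, reads were aligned with HISAT2 2.0.5 to mm10, and the counting program is not given in the sources used here. Multiplied by gene length, the FPKM values of a library were whole multiples of its smallest step in 100% of values below 1000 reads (tolerance 0.01 reads), so reads could be recovered. The gene positions and lengths of the 10 genes are those of GENCODE M21 (GRCm38). The 11552 genes whose mean reached 1 FPKM were tested on log2(FPKM + 1), with a pseudocount of 1, by limma 3.58.1 (lmFit, eBayes with trend) in R 4.3.3. Tests were two-sided, p-values were adjusted by Benjamini-Hochberg over all these genes, and the fit was tested on simulated data. Ratios of 2 genes were compared by an exact permutation test (scipy 1.17.1). Intervals are 95%. The members, the lists of genes and the motifs were chosen with earlier results of these data known. Named were all members, *Myh9*, primary granule genes, regulators, genes of the sort, and at most 3 called members of another list in each direction. The genes with the pattern most like the members' mean are left out, since the members have no common direction. Genes named for passing the filter through 1 group were chosen after their values were seen. Genes named as absent or near 0 are defining markers. Alternatives were another pseudocount, other filters, scalings and variance models, a replicate block, leaving out each library, and voom on the reads. Removal of GC and length trends was chosen after seeing the data.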

Additional observations from a re-analysis of the deposited data

How the results depend on the processing

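With a call at more than 2-fold on the log2(FPKM + 1) scale and an unadjusted p below 0.05, 1 late granule gene rose and 0 fell, since most changes were smaller than 2-fold. This count depends on the scale. The log2 fold change of *Chil3*, 0.94 on this scale, was 1.12 with a pseudocount of 0.1 and 1.15 with voom. Under the 17 other settings, 3 or 4 of the 10 rose and 3 or 4 fell. *Ltf*, *Camp*, *Ngp*, *Lcn2*, *Mmp9*, *Retnlg* and *Chil3* kept their direction and their call wherever they were tested, with a largest adjusted p of 0.0387 (limma), while *Ltf*, *Mmp8* and *Mmp9* were not tested with a mean of at least 5 FPKM. *S100a9* lost its call in 6 of 17 settings: without the filter on low values (limma adjusted p = 0.0725), without a trend (0.0515), without moderation of the variance (0.0938) and in 3 of the fits that left out a library. *S100a8*, never called, changed sign with voom (log2 fold change 0.0010), and lay between -0.11 and 0.086 in the fits lacking 1 library. With the replicate block, 4 rose and 4 fell as before. The replicate numbers do not pair the libraries: deviations of same-numbered libraries from their group means correlated at -0.026 to -0.0046, and 0 of 3 control libraries correlated best with their own number. With 52 to 115 reads, *Mmp8* and *Mmp9* have the least depth.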

Other observations

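Of 4 other S100 genes measured beside *S100a8* and *S100a9*, 1 rose and 3 fell, against 19.9% and 20.6% of all genes tested. *S100a6* (calcyclin) rose from 9.23, 7.60 and 8.77 FPKM in CTRL to 15.9, 15.2 and 16.6 FPKM in cKO libraries (log2 fold change 0.83, limma adjusted p = 2.6e-04). *S100a10*, the partner of annexin A2, fell from 183, 176 and 191 FPKM to 151, 149 and 158 FPKM (log2 fold change -0.26, limma adjusted p = 0.00250), and *S100a1* fell by 0.22 on the log2 scale (limma adjusted p = 0.00198). *S100a11* had the smallest fall (log2 fold change -0.10, limma adjusted p = 0.0477). It lost its call in most of the 17 alternative settings, with voom and every fit that left out a library among them (limma adjusted p at most 0.112). The groups did not overlap in any of the 4, as in 54.0% of all genes tested.

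Of the 17 other late neutrophil genes under the filter, none of which was tested, 7 were higher in cKO libraries without overlap, 1 was lower and the other 9 overlapped. Some of these rest on few reads: *Stfa2l1* had 1, 1 and 2 reads in CTRL and 4, 3 and 4 in cKO. The share without overlap among all genes under the filter was not counted. *Asprv1*, a neutrophil protease, was at 0.618, 0.293 and 0.404 FPKM in CTRL and at 0.932, 1.56 and 1.08 FPKM in cKO libraries. *Il1b*, the gene of interleukin 1 beta and the member that was lower, was at 0.554, 0.714 and 0.683 FPKM in CTRL and at 0.364, 0.489 and 0.423 FPKM in cKO libraries. Both were chosen after their values were seen.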
